A study of Mus musculus with 3 samples.

Results

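The genes of sterol and fatty acid synthesis were followed across the cells of the mouse kidney. The set held 30 genes chosen by name and function, all present among the 33696 genes of the files, and comprised 23 enzymes, 5 regulators and 2 lipid transport genes. The study made 3 single-cell 3′ libraries from kidneys of male mice, 1 library per group. Aged D+Q mice were 20 months of age and treated with D+Q, which usually stands for the kinase inhibitor dasatinib with the flavonoid quercetin. Aged vehicle mice, of the same 20 months, received vehicle, and young mice, labelled control, were 3/4 months of age, read here as 3 to 4. The labels give no dose or schedule for D+Q, nor the number of animals behind each library. Since every group is a single library, differences are described by size, without replicate checks or tests. Intervals throughout are 95% and reflect counting error alone.

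Cholesterol is built from acetyl-CoA through mevalonate, isoprenoid units, squalene and a series of sterol intermediates. Fatty acids are built from the same acetyl-CoA by carboxylation, chain building, elongation and desaturation. Both routes are driven by the SREBP transcription factors, which Scap carries from the endoplasmic reticulum when sterols are low and which the Insig proteins hold back when sterols are high. The proximal tubule, the most abundant epithelium of the kidney, reabsorbs filtrate in segments named S1, S2 and S3 and takes much of its energy from fatty acid oxidation.

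The libraries held 8037 barcodes with 21058975 counts in aged D+Q, 6027 with 13944270 in aged vehicle and 8615 with 24346733 in young, and pairs of libraries shared 28 to 38 barcodes. After filtering, 7456 aged D+Q, 5692 aged vehicle and 7698 young cells were kept. Cells were named from marker genes, and 68.3% of aged D+Q, 67.6% of aged vehicle and 63.0% of young cells were proximal tubule-like. The 9 white adipocyte markers summed to 20.6, 36.1 and 127 CPM (counts per 1000000) over all cells of aged D+Q, aged vehicle and young, and the 8 urothelium markers to 96.3, 27.2 and 301 CPM, each marker of both lists being highest in young. The 14 proximal tubule markers were also counted in the other named classes, at 27.3% to 69.7% of their level in proximal tubule-like cells of the same library.

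Promoter sequences are shown for Hmgcs1, Cyp51, Idi1 and Mfsd2a, because these are the matched genes whose level was higher in the S3 clusters of the proximal tubule in each library, with or without a small cluster, as described further on. The windows hold the 250 bases before the transcription start in RefSeq on build GRCm38.p6, and 24 of the 30 genes were matched in that table. Fdps, Fdft1, Sqle, Scd1, Scd2 and Stard4 were not matched. Hmgcs1 lies on the plus strand, with its window at chr13:119690101-119690350. The Cyp51 window is on the minus strand at chr5:4104698-4104947. The Idi1 window is on the plus strand at chr13:8885356-8885605, and that of Mfsd2a on the minus strand at chr4:122961189-122961438. Each is written 5′ to 3′ in the direction of transcription. Capitals mark the sterol regulatory element letters TCACCCCAC and the NF-Y letters CCAAT on either strand, so that ATTGG is CCAAT read from the other strand.
Hmgcs1: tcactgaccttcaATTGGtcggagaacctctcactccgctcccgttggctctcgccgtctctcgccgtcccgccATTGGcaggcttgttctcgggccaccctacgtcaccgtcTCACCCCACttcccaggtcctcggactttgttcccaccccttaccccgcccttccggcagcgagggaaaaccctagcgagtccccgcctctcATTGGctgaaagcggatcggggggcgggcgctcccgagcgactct
Cyp51: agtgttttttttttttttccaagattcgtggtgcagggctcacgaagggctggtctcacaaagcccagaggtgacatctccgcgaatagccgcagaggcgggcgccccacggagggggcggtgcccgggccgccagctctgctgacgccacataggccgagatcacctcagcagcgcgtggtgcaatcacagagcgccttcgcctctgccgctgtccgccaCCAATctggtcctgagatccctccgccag
Idi1: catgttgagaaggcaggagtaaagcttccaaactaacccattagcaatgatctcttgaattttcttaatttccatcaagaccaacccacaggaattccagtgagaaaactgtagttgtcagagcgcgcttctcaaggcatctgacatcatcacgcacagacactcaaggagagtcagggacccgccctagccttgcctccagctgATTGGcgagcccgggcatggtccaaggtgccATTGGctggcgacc
Mfsd2a: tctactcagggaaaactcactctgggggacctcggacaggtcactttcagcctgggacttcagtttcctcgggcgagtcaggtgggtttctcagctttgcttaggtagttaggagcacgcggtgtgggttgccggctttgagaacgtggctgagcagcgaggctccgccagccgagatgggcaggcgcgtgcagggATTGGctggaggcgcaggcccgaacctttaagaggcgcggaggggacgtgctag
The sterol element TCACCCCAC stood in the Hmgcs1 window and in none of the other 23 matched windows, against 0.466% of all 27025 promoter windows of this length. Its looser form TCACNCCAC, which includes it, was likewise found in Hmgcs1 alone, against 1.04% of all windows. CCAAT was present in 19 of the 24 windows, against 34.5% of all windows, with 3 copies in Hmgcs1, 2 in Idi1 and 1 each in Cyp51 and Mfsd2a. The GC box letters GGGCGG were present in 16 of 24, against 32.9% of all windows. The E-box letters CACGTG were present in 3 of 24 (Hsd17b7, Insig1 and Sc5d), against 6.05%. All motifs were searched on both strands, a match describes letters only, and no binding was measured here.

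Over all cells, the set summed to 759 CPM in aged D+Q, 894 CPM in aged vehicle and 903 CPM in young, from 14639, 11721 and 19579 counts. In such sums, fewer cells of a type and less RNA per cell cannot be told apart. The filter of 30 counts over the 3 libraries together with a mean level of 5 CPM was passed by 28 of the 30 genes, and not by Mvk and Tm7sf2. For aged D+Q over aged vehicle, 0 were at least 1.5-fold higher and 3 lower, where 1.46% and 1.79% of all genes were. For aged vehicle over young, 2 were at least 1.5-fold higher and 3 lower, where 3.52% and 3.4% of all genes were. For aged D+Q over young, 1 was at least 1.5-fold higher and 4 lower, where 2.05% and 2.76% of all genes were. The lower genes in aged D+Q over aged vehicle were Idi1, Scd1 and Mfsd2a. Aged vehicle over young had Lss and Mfsd2a higher and Cyp51, Ebp and Fasn lower, and aged D+Q over young had Lss higher and Idi1, Cyp51, Fasn and Scd1 lower. The set's median log2 ratio was −0.23 in aged D+Q over aged vehicle, against −0.06 over all genes. It was −0.04 in aged vehicle over young, against 0.04, and −0.26 in aged D+Q over young, against −0.01. Any pair of these comparisons shares a library, whose high or low value enters both.

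Proximal tubule-like cells, which numbered 5089 in aged D+Q, 3849 in aged vehicle and 4847 in young, had a few large differences while most genes of the set lay within 1.5-fold. The set summed to 750 CPM in aged D+Q, 897 CPM in aged vehicle and 903 CPM in young, and its 17 sterol enzymes alone to 448, 526 and 576 CPM in the same libraries. Here 25 of the 30 genes passed the filter, and Mvk, Pmvk, Lss, Tm7sf2 and Fasn did not. Of these genes, 0 were at least 1.5-fold higher and 3 lower in aged D+Q over aged vehicle, beside 2.01% and 2.05% of all genes. Of these genes, 4 were at least 1.5-fold higher and 2 lower in aged vehicle over young, beside 4.67% and 3.92% of all genes. Of these genes, 0 were at least 1.5-fold higher and 3 lower in aged D+Q over young, beside 2.82% and 3.05% of all genes. The lower genes in aged D+Q over aged vehicle were again Idi1, Scd1 and Mfsd2a. Aged vehicle over young had Dhcr7, Acly, Scd1 and Mfsd2a higher and Cyp51 and Ebp lower, and aged D+Q over young had Idi1, Cyp51 and Mfsd2a lower. The median log2 ratio was −0.27 in aged D+Q over aged vehicle, with 19 of 25 genes below 0, against −0.05 over all genes. It was 0.13 in aged vehicle over young, against 0.06, and −0.11 in aged D+Q over young, against 0.02.

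**Figure D1:**
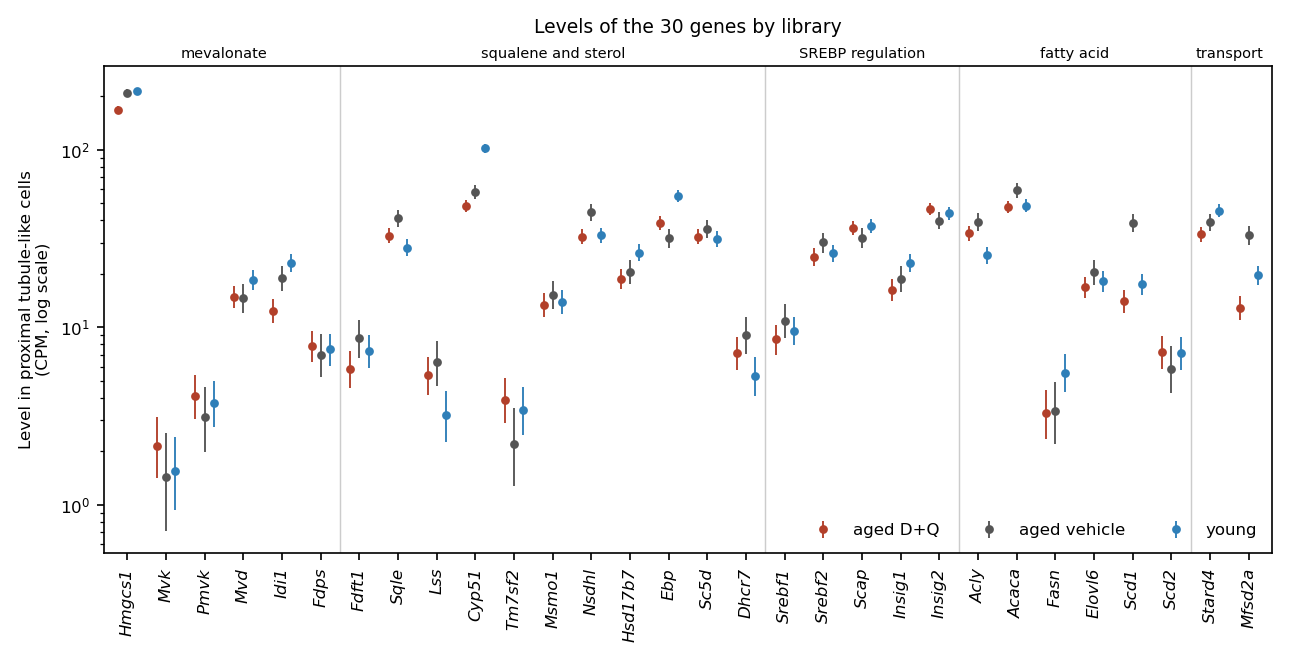
Level of each of the 30 genes in proximal tubule-like cells, in CPM on a log axis, for the aged D+Q, aged vehicle and young library, grouped by role. Points are libraries and bars 95% Poisson intervals; Scd1 stands at 13.97 CPM in aged D+Q, 38.8 CPM in aged vehicle and 17.5 CPM in young, and Cyp51 is highest in young at 102 CPM.

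Among the mevalonate steps, Hmgcs1, the cytosolic synthase that makes HMG-CoA, had 168 CPM (161 to 175) in aged D+Q, 208 CPM (198 to 219) in aged vehicle and 213 CPM (205 to 221) in young proximal tubule-like cells. Aged D+Q was lowest, with an interval below those of the other libraries. The log2 ratio was −0.31 (−0.41 to −0.22) in aged D+Q over aged vehicle and −0.34 (−0.43 to −0.26) over young, under 1.5-fold. Both lay below 0 in 7 of 7 proximal tubule-like clusters, at −0.61 to −0.01 and −0.47 to −0.07, near no change at the upper ends. Idi1, which isomerises the isoprenoid unit, had 12.4 CPM (10.5 to 14.5) in aged D+Q, 18.9 CPM (15.96 to 22.2) in aged vehicle and 23.1 CPM (20.5 to 25.95) in young. Aged D+Q was lowest here too, at −0.61 (−0.95 to −0.27) over aged vehicle and −0.90 (−1.19 to −0.61) over young. The ratio to aged vehicle was −0.43, under 1.5-fold, without the small cluster 21 described further on. Mvd, the decarboxylase that yields the isoprenoid unit, had 14.9, 14.6 and 18.5 CPM in aged D+Q, aged vehicle and young. Fdps, which makes farnesyl diphosphate, had 7.83, 6.99 and 7.51 CPM in aged D+Q, aged vehicle and young, and both genes stayed within 1.5-fold. The kinases of the pathway were scarce, with 27, 11 and 19 counts of Mvk and 51, 24 and 46 counts of Pmvk in aged D+Q, aged vehicle and young.

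In the squalene and sterol steps, Cyp51 and Ebp were lower in aged vehicle than in young, while Dhcr7 was higher. Cyp51, the lanosterol demethylase, had 48.1 CPM (44.3 to 52.1) in aged D+Q, 57.9 CPM (52.6 to 63.5) in aged vehicle and 102 CPM (96.1 to 108) in young. Young stood above both aged libraries, with log2 ratios of −0.81 (−0.97 to −0.66) in aged vehicle over young and −1.08 (−1.22 to −0.94) in aged D+Q over young. Aged vehicle was below young in 7 of 7 clusters, at −1.42 to −0.41. Ebp, the sterol isomerase, had 38.9 CPM (35.5 to 42.5) in aged D+Q, 31.7 CPM (27.9 to 35.95) in aged vehicle and 54.7 CPM (50.6 to 58.99) in young. Aged vehicle was lowest and aged D+Q in between, at 0.29 (0.07 to 0.52) in aged D+Q over aged vehicle and −0.78 (−1.003 to −0.57) in aged vehicle over young, the second being below 0 in 7 of 7 clusters. A cluster with a median of 38.6% mitochondrial counts, cluster 4, made up 11.4% of aged D+Q, 5.22% of aged vehicle and 10.2% of young proximal tubule-like cells, and held Ebp at 91.4, 44.3 and 131 CPM in aged D+Q, aged vehicle and young. Without it, Ebp stood at 0.11 in aged D+Q over aged vehicle and at −0.59 in aged vehicle over young.

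Dhcr7, which makes a late reduction to cholesterol, had 7.19 CPM (5.78 to 8.83) in aged D+Q, 9.06 CPM (7.07 to 11.5) in aged vehicle and 5.31 CPM (4.09 to 6.76) in young. Its ratio of aged vehicle over young was 0.77 (0.26 to 1.28), and 0.43, under 1.5-fold, when every library was weighted to a common mix of clusters. Sqle, the squalene epoxidase, had 32.8 CPM (29.7 to 36.2) in aged D+Q, 41.05 CPM (36.6 to 45.8) in aged vehicle and 28.1 CPM (25.2 to 31.2) in young. It was highest in aged vehicle, above young in 7 of 7 clusters, but its log2 ratio of 0.55 (0.32 to 0.77) was under 1.5-fold. Nsdhl, which takes part in removing methyl groups from the sterol ring, had 32.3 CPM (29.3 to 35.6) in aged D+Q, 44.4 CPM (39.8 to 49.4) in aged vehicle and 32.98 CPM (29.8 to 36.4) in young. Its level peaked in aged vehicle, with ratios of −0.46 (−0.67 to −0.25) in aged D+Q over aged vehicle and 0.43 (0.22 to 0.64) in aged vehicle over young, both under 1.5-fold. Lss, the lanosterol synthase, had 67, 49 and 39 counts in aged D+Q, aged vehicle and young, below the filter. Its ratio of aged vehicle over young was 0.99 (0.36 to 1.64), and over all cells, where it passed, 0.86 (0.41 to 1.31).

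Of the remaining sterol genes, Hsd17b7, a sterol ketoreductase, had 18.8 CPM (16.4 to 21.3) in aged D+Q, 20.6 CPM (17.5 to 24.05) in aged vehicle and 26.3 CPM (23.5 to 29.3) in young. Young was highest, with an interval that lay above that of aged D+Q. Sc5d, the desaturase acting just before Dhcr7, had 32.4 CPM (29.3 to 35.7) in aged D+Q, 35.7 CPM (31.6 to 40.2) in aged vehicle and 31.4 CPM (28.4 to 34.7) in young, with overlapping intervals. Msmo1, an oxidase that removes sterol methyl groups, had 13.4, 15.3 and 13.96 CPM in aged D+Q, aged vehicle and young, and Fdft1, the squalene synthase, 5.83, 8.68 and 7.35 CPM in the same libraries. None of these was past 1.5-fold. Tm7sf2, a sterol reductase, had 49, 17 and 42 counts in aged D+Q, aged vehicle and young.

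Of the 5 SREBP regulators, 0 were past 1.5-fold in any comparison in proximal tubule-like cells. Past it were 2.01% to 4.67% of all genes, by comparison and direction, so 0 of 5 does not set the regulators apart. Srebf2, the factor that mainly drives sterol genes, had 24.9 CPM (22.2 to 27.8) in aged D+Q, 30.04 CPM (26.3 to 34.2) in aged vehicle and 26.2 CPM (23.4 to 29.2) in young. Srebf1, which mainly drives fatty acid genes, had 8.54, 10.9 and 9.55 CPM in aged D+Q, aged vehicle and young. Scap, the escort protein, had 36.3 CPM (33.1 to 39.8) in aged D+Q, 31.98 CPM (28.1 to 36.2) in aged vehicle and 37.4 CPM (34.04 to 40.97) in young. The intervals of each of these 3 genes overlapped between all libraries. Insig1, a retention protein that is itself sterol-responsive, had 16.3 CPM (14.1 to 18.7) in aged D+Q, 18.8 CPM (15.8 to 22.1) in aged vehicle and 23.1 CPM (20.5 to 25.95) in young. It was highest in young, at −0.50 (−0.77 to −0.24) in aged D+Q over young. Insig2, the other retention protein, had 46.3 CPM (42.6 to 50.2) in aged D+Q, 39.9 CPM (35.5 to 44.6) in aged vehicle and 43.9 CPM (40.3 to 47.8) in young, with overlapping intervals.

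In the fatty acid branch, Scd1 had the ratio farthest from 0 of the 25 genes. Scd1, the stearoyl-CoA desaturase that makes monounsaturated fatty acids, had 13.97 CPM (11.98 to 16.2) in aged D+Q, 38.8 CPM (34.6 to 43.5) in aged vehicle and 17.5 CPM (15.3 to 20.1) in young, from 175, 300 and 215 counts. Aged vehicle stood apart from the other libraries, with log2 ratios of −1.47 (−1.75 to −1.20) in aged D+Q over aged vehicle and 1.15 (0.89 to 1.41) in aged vehicle over young. Aged D+Q was below aged vehicle in 7 of 7 clusters, at −1.52 to −0.29. Cells with at least 5 Scd1 counts numbered 1 in aged D+Q, 11 in aged vehicle and 0 in young. In aged vehicle they carried 78 of the 300 counts, and 8 of them lay in cluster 21. Without that cluster the ratios were −1.30 in aged D+Q over aged vehicle and 0.76 in aged vehicle over young.

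Acly, which makes cytosolic acetyl-CoA from citrate, had 33.9 CPM (30.7 to 37.2) in aged D+Q, 39.4 CPM (35.1 to 44.04) in aged vehicle and 25.4 CPM (22.6 to 28.4) in young. Young was lowest, and the ratio of aged vehicle over young was 0.63 (0.40 to 0.87). That ratio was 0.39 with a common mix of clusters, under 1.5-fold. Acaca, the acetyl-CoA carboxylase, had 47.7 CPM (43.9 to 51.7) in aged D+Q, 59.04 CPM (53.7 to 64.7) in aged vehicle and 48.4 CPM (44.6 to 52.5) in young. The aged vehicle level was above the intervals of the other libraries, at −0.31 (−0.49 to −0.13) in aged D+Q over aged vehicle. That ratio was below 0 in 4 of 7 clusters and above 0 in 3, at −0.62 to 2.02. Elovl6, the elongase of palmitate, had 16.8 CPM (14.6 to 19.2) in aged D+Q, 20.5 CPM (17.4 to 23.9) in aged vehicle and 18.1 CPM (15.8 to 20.7) in young. Scd2, a second desaturase, had 7.27, 5.83 and 7.18 CPM in aged D+Q, aged vehicle and young, and both stayed within 1.5-fold. Fasn, the fatty acid synthase, had 41, 26 and 68 counts in aged D+Q, aged vehicle and young, below the filter.

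Mfsd2a, a transporter of lysophospholipids that carry docosahexaenoic acid, had 12.9 CPM (10.9 to 15.002) in aged D+Q, 33.02 CPM (29.1 to 37.3) in aged vehicle and 19.6 CPM (17.2 to 22.2) in young. Aged vehicle was highest and aged D+Q lowest, at −1.36 (−1.65 to −1.07) in aged D+Q over aged vehicle, 0.75 (0.49 to 1.014) in aged vehicle over young and −0.61 (−0.90 to −0.31) in aged D+Q over young. With a common mix of clusters the last ratio was −0.32, under 1.5-fold. By cluster, aged D+Q lay below aged vehicle in 7 of 7, at −1.34 to −0.04. Aged vehicle lay above young in 4 of the 7 and below it in 3, at −1.11 to 1.05. Against young, aged D+Q was lower in 5 clusters and higher in 2, at −1.15 to 0.09. Beside Scd1 and Mfsd2a, the 8 macrophage and monocyte markers summed to 47.03, 70.6 and 43.01 CPM in proximal tubule-like cells of aged D+Q, aged vehicle and young. The 7 S3 markers summed to 4772, 5325 and 4137 CPM in the same libraries, of which 1 was highest in aged D+Q, 3 in aged vehicle and 3 in young. Without Cyp7b1 they summed to 4360.5, 4433 and 3709 CPM in aged D+Q, aged vehicle and young. The 9 white adipocyte markers summed to 6.63, 9.32 and 27.9 CPM, with 1 marker at 0 in aged D+Q, 1 in aged vehicle and 0 in young. The part of these lists in the values was not tested. Within cluster 12, the larger S3 cluster, Mfsd2a stood at 41.8 CPM in aged D+Q, 106 CPM in aged vehicle and 51.2 CPM in young. In the same cluster Scd1 stood at 26.9 CPM in aged D+Q, 68.4 CPM in aged vehicle and 23.5 CPM in young. Stard4, a carrier of cholesterol between membranes, had 33.3 CPM (30.2 to 36.7) in aged D+Q, 38.97 CPM (34.7 to 43.6) in aged vehicle and 45.3 CPM (41.6 to 49.2) in young. Young was highest, at −0.44 (−0.63 to −0.26) in aged D+Q over young, under 1.5-fold.

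**Figure D2:**
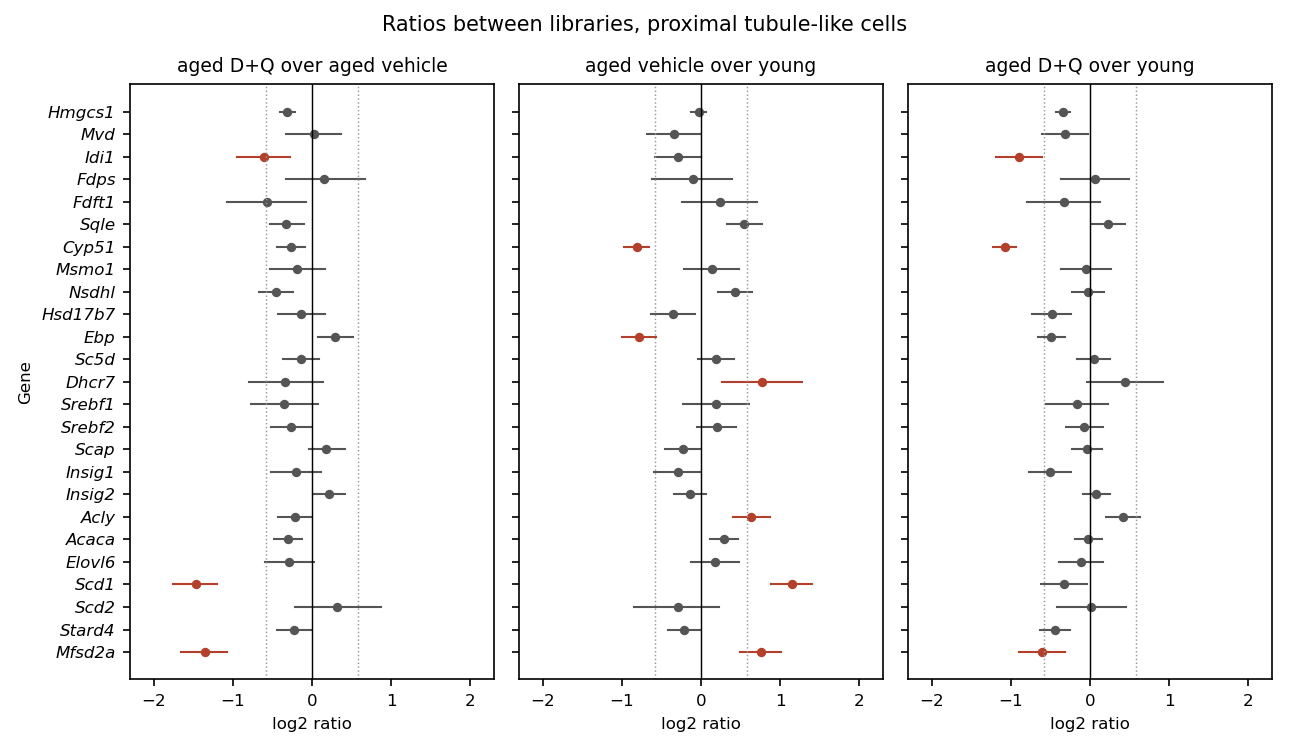
Log2 ratios between libraries for the 25 genes that passed the filter in proximal tubule-like cells, with 95% conditional binomial intervals, dotted lines at 1.5-fold and red for ratios past it. Scd1 and Mfsd2a stand at −1.47 and −1.36 in aged D+Q over aged vehicle, and Cyp51 at −0.81 in aged vehicle over young and −1.08 in aged D+Q over young.

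Shares of cells with a count were compared at 1 fixed depth, with every cell thinned to 1000 counts and 0 cells left out. In cluster 12, Mfsd2a was detected in 3.94% (2.69 to 5.54) of aged D+Q cells, 8.44% (6.62 to 10.6) of aged vehicle cells and 5.15% (3.84 to 6.75) of young cells. The unthinned shares were 10.04%, 18.7% and 11.6% in aged D+Q, aged vehicle and young, at median depths of 2514, 1892 and 2592 counts. The highest share was in aged vehicle, as for the CPM. Thick ascending limb-like cells were taken as background for the gene. After thinning, Mfsd2a was detected there in 2 of 367 aged D+Q, 4 of 178 aged vehicle and 1 of 359 young cells. Those shares were 0.545% (0.066 to 1.95), 2.25% (0.616 to 5.65) and 0.279% (0.0071 to 1.54), with overlapping intervals on few cells. Median depths were 1878, 1930 and 2052 counts in aged D+Q, aged vehicle and young. Cyp51 was detected in 11.2% (9.07 to 13.6) of aged D+Q cells, 10.02% (8.05 to 12.3) of aged vehicle cells and 17.8% (15.4 to 20.4) of young cells of cluster 12 after thinning, and in 3.27%, 3.37% and 4.74% of thick ascending limb-like cells of aged D+Q, aged vehicle and young. Young was highest for Cyp51 in cluster 12.

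The proximal tubule-like cells fell into 7 clusters, built without the 30 genes and 60 further lipid genes. Clusters 0 and 1 carried S1 and S2 markers and clusters 12 and 21 carried S3 markers. Clusters 2 and 3 were low in S1 and S2 markers and were unevenly spread over the libraries. Cluster 2 held 12.5% of aged D+Q, 4.29% of aged vehicle and 32.5% of young proximal tubule-like cells. Cluster 3 held 27.6% of aged D+Q, 37.3% of aged vehicle and 5.86% of young cells. Of the 26 genes that passed the filter over the S3 and the S1 and S2 clusters, 7 were at least 1.5-fold higher in S3 in each of the 3 libraries, as were 11.5% of all genes. In the opposite direction, 1 gene was lower in each library, as were 7.99% of all genes. Without cluster 21 these were 6 and 1, against 11.8% and 7.77% of all genes, with Mvd no longer counted.

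The 7 genes higher in S3 were Hmgcs1, Mvd, Idi1, Sqle, Cyp51, Scd1 and Mfsd2a, of which 5 are sterol enzymes. Hmgcs1 had 248, 288 and 304 CPM in the S3 clusters of aged D+Q, aged vehicle and young, against 104, 116 and 119 CPM in their S1 and S2 clusters. Cyp51 had 118, 143 and 217 CPM in S3 against 18.8, 16.6 and 36.7 CPM in S1 and S2 of aged D+Q, aged vehicle and young. Young was highest for Cyp51 in either segment. Sqle had 62.2, 73.5 and 43.3 CPM in S3 against 18.5, 21.3 and 19.7 CPM in S1 and S2 of aged D+Q, aged vehicle and young. Idi1 had 14.9, 36.7 and 37.3 CPM in S3 against 6.34, 7.66 and 10.01 CPM in S1 and S2 of the same libraries, and Mvd 24.1, 24.1 and 22.8 CPM against 12.4, 9.78 and 14.7 CPM. Aged D+Q was lowest for Idi1 in either segment.

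Mfsd2a was nearly confined to S3 within these 4 clusters, with 42.2, 104 and 51.9 CPM in S3 of aged D+Q, aged vehicle and young, against 1.71, 2.13 and 3.89 CPM in S1 and S2. The log2 ratios of S3 over S1 and S2 were 4.54 (3.53 to 5.98), 5.48 (4.37 to 7.26) and 3.69 (2.94 to 4.65) in aged D+Q, aged vehicle and young. Scd1 had 42.7, 111 and 29.1 CPM in S3 against 5.36, 14.9 and 9.18 CPM in S1 and S2 of these libraries. For Scd1, aged vehicle was highest in either segment. Elovl6 ran the opposite way, with 5.11, 4.20 and 4.11 CPM in S3 of aged D+Q, aged vehicle and young against 30.7, 48.5 and 37.5 CPM in S1 and S2, at log2 ratios of −2.53, −3.45 and −3.13. Acaca, which acts earlier in the same route, had 43.2, 62.98 and 45.6 CPM in S3 of aged D+Q, aged vehicle and young. Its S1 and S2 levels were 64.8, 73.6 and 63.9 CPM in the same libraries. The log2 ratios of S3 over S1 and S2 were −0.58, −0.22 and −0.49, each under 1.5-fold. Over the pooled libraries Acaca had 51.8 CPM in cluster 12 and 9.94 CPM in the high-mitochondrial cluster 4.

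Cluster 21 was small, with 35 aged D+Q, 50 aged vehicle and 27 young cells. Its leading genes were Serpina1a, Serpina1f and, although left out of the clustering, Scd1, followed by genes such as Slc22a7 and Apob. Over the pooled libraries it had 531 CPM of Hmgcs1, 466 of Cyp51, 469 of Scd1, 228 of Sqle, 163 of Idi1 and 127 of Ebp, each above the level in the other 6 clusters. Acaca had 6.52 CPM there, and Elovl6 and Scd2 had 0 counts. Idi1 was at 54.4 CPM (14.8 to 139) in aged D+Q, 146 CPM (91.3 to 221) in aged vehicle and 292 CPM (187 to 435) in young cells of this cluster. Scd1 was at 489 CPM (343 to 677) in aged D+Q, 602 CPM (485 to 739.7) in aged vehicle and 207 CPM (121 to 331) in young. Young was the highest of the libraries for Idi1 and the lowest for Scd1. The cluster had a median of 16.5% mitochondrial counts, against 4.5% in cluster 12, and the part of mitochondrial share in these levels was not tested.

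**Figure D3:**
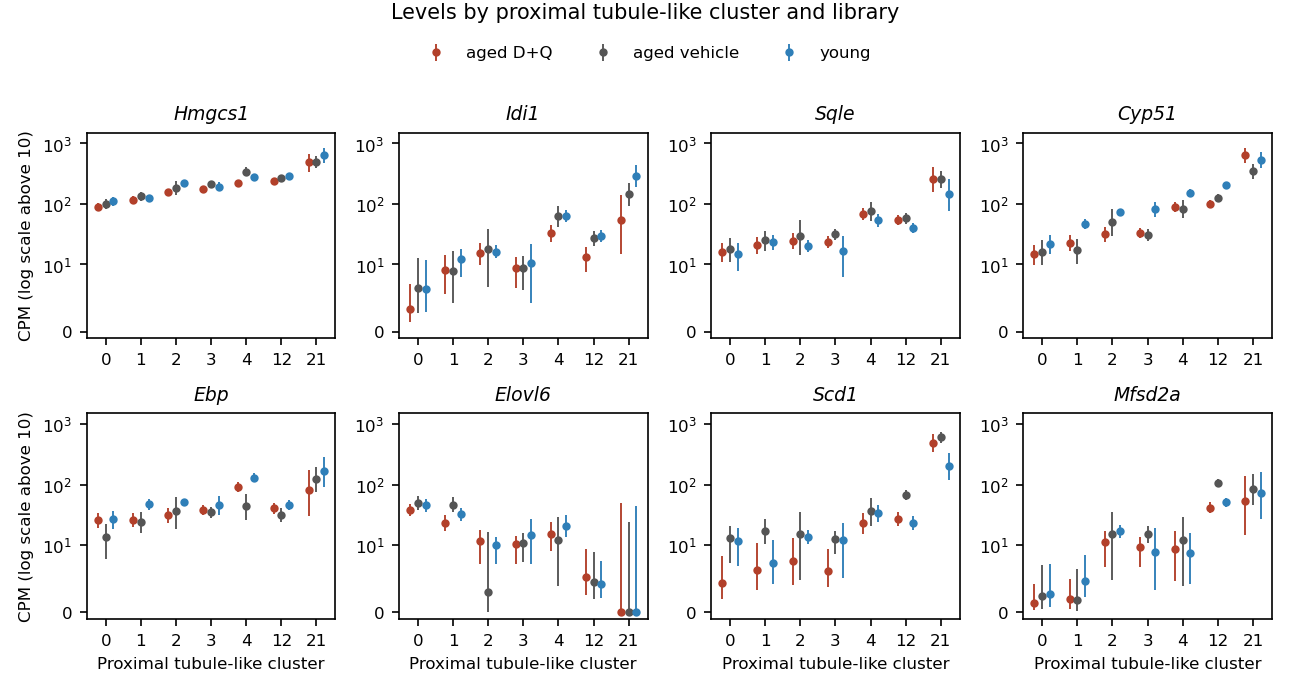
Level of 8 genes in each of the 7 proximal tubule-like clusters of the aged D+Q, aged vehicle and young library, in CPM (linear below 10, log above), with 95% Poisson intervals. Clusters 0 and 1 carry S1 and S2 markers and clusters 12 and 21 S3 markers; in cluster 12 Mfsd2a stands at 41.8, 106 and 51.2 CPM in aged D+Q, aged vehicle and young, and Elovl6 at 5.29, 4.56 and 4.24 CPM.

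Outside the proximal tubule, members of the fatty acid branch differed in the cells that held them, comparing each gene with itself between classes. Scd2 was at 174 CPM (149 to 202) in cells of the connecting tubule and principal cell-like class over the pooled libraries. It was at 103 CPM (61.8 to 160.2) in podocyte-like, 51.7 CPM in distal convoluted tubule-like, 45.4 CPM in stroma-like and 27.9 CPM in thick ascending limb-like cells, against 6.89 CPM in proximal tubule-like cells. Elovl6 was at 93.02 CPM (64.03 to 131) in parietal epithelium-like, 66.8 CPM (45.1 to 95.3) in intercalated cell-like and 60.9 CPM (46.5 to 78.4) in the connecting tubule and principal cell-like class, against 18.2 CPM in proximal tubule-like cells. Scd1 was at 12.2 CPM (6.29 to 21.3) in the last of these classes, against 21.2 CPM (19.7 to 22.9) in proximal tubule-like cells. The parietal epithelium-like class also held thin limb markers, so its name is uncertain. These 6 markers summed to 751, 357 and 1180 CPM there in aged D+Q, aged vehicle and young. Over all cells they summed to 183, 171 and 169 CPM. Urothelium-like cells held Elovl6 at 181 CPM (154 to 210.2), Scd2 at 138 CPM (116 to 165), Msmo1 at 87.6 CPM and Srebf1 at 85.5 CPM.

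White adipocyte-like cells, 6 in aged D+Q, 12 in aged vehicle and 79 in young, held Acaca, Scd1 and Fasn at their highest level among the named classes. The 5 brown adipocyte markers summed to 0.259, 0.458 and 5.54 CPM over all cells of aged D+Q, aged vehicle and young. In this class they summed to 69.2, 0 and 302 CPM, beside 8793, 8923 and 6289.5 CPM of the 9 white markers. Whether the class mixes white and brown adipocyte-like cells was not tested. Over the pooled libraries Acaca was at 835 CPM (729 to 951), Scd1 at 898 CPM (788 to 1018) and Fasn at 197 CPM (147 to 257) there, while Scd2 had 1 count, or 3.71 CPM. They carried 5 of the 268 Scd1 counts of aged D+Q, 4 of the 447 of aged vehicle and 233 of the 648 of young, the last being 36.0% (32.3 to 39.8). Of the Fasn counts they carried 0 of 75 in aged D+Q, 0 of 62 in aged vehicle and 53 of 185 in young. Over all cells Scd1 had 13.9 CPM (12.3 to 15.7) in aged D+Q, 34.1 CPM (31.01 to 37.4) in aged vehicle and 29.9 CPM (27.6 to 32.3) in young, so that young was close to aged vehicle, unlike in proximal tubule-like cells. The ratio of aged vehicle over young was 0.19 over all cells, and 0.73 without the adipocyte-like, urothelium-like and haemoglobin-led clusters. The ratio of aged D+Q over young was −1.10, and −0.51 without those clusters. Fasn over all cells had 3.89 CPM (3.06 to 4.88) in aged D+Q, 4.73 CPM (3.63 to 6.06) in aged vehicle and 8.54 CPM (7.35 to 9.86) in young, highest in young, at −0.84 (−1.29 to −0.43) in aged vehicle over young and −1.13 (−1.54 to −0.74) in aged D+Q over young. Without the white adipocyte-like cells, an alternative chosen after seeing the data, Fasn had 3.89, 4.74 and 6.16 CPM in aged D+Q, aged vehicle and young, below the filter. The ratio of aged vehicle over young was then −0.37 (−0.84 to 0.07), under 1.5-fold, and that of aged D+Q over young −0.66 (−1.09 to −0.24).

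**Figure D4:**
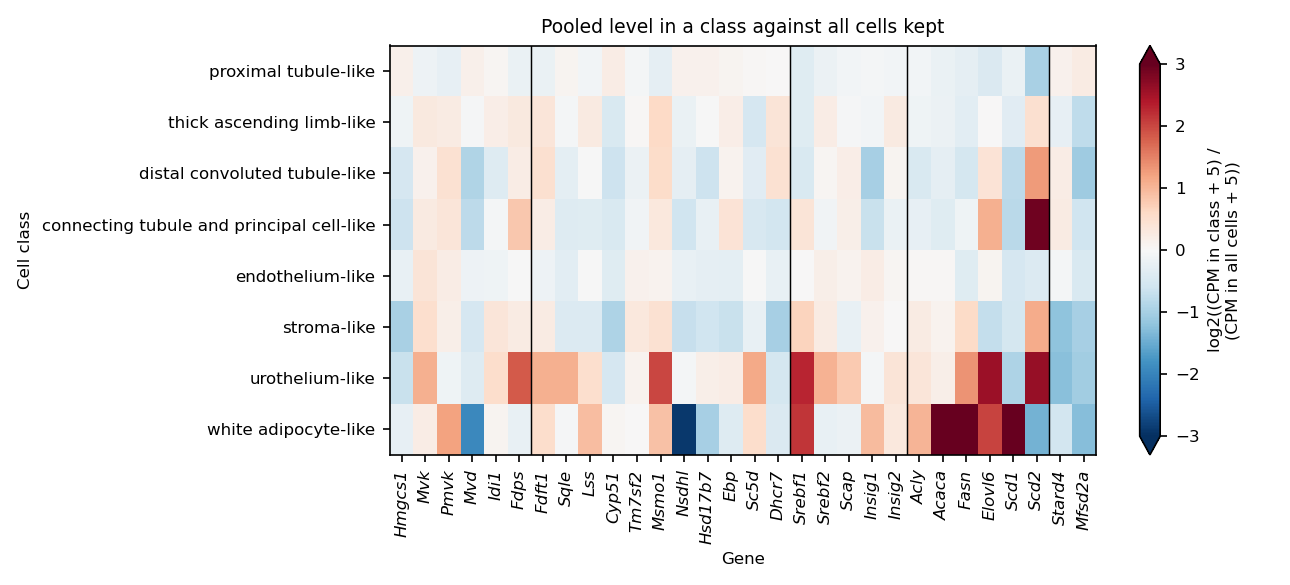
Level of each gene in 8 named cell classes relative to all cells kept, libraries pooled, as log2 of CPM plus 5 in the class over CPM plus 5 in all cells, with values past 3 drawn at the end of the scale. Scd2 stands at 174 CPM in connecting tubule and principal cell-like and 138 CPM in urothelium-like cells, and Acaca and Scd1 at 835 CPM and 898 CPM in white adipocyte-like cells.

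Differences between libraries in the smaller classes rested on few counts, and the shares of all genes past 1.5-fold were above those in the proximal tubule. The connecting tubule and principal cell-like class held 156 aged D+Q, 79 aged vehicle and 147 young cells, and 9 of the 30 genes passed the filter. At the 1.5-fold threshold, 0 of them were higher and 4 lower in aged D+Q than in aged vehicle, with 11.6% and 14.8% of all genes. Against young, aged vehicle had 4 higher and 1 lower, with 14.9% and 15.8% of all genes, and aged D+Q had 1 higher and 2 lower, with 12.6% and 16.9%. Scd2 had 181 CPM (142 to 228) in aged D+Q, 299 CPM (228 to 386) in aged vehicle and 102 CPM (73.1 to 139) in young. Aged vehicle was highest and young lowest, at −0.72 (−1.24 to −0.20) in aged D+Q over aged vehicle and 1.54 (0.94 to 2.16) in aged vehicle over young. Of the 59 Scd2 counts of aged vehicle, 26 came from 4 cells with at least 5 counts each, against 0 such cells in aged D+Q and 1 in young. Thinned to 1000 counts per cell, Scd2 was detected in 14.7% (9.58 to 21.3) of aged D+Q cells, 15.2% (8.10 to 25.03) of aged vehicle cells and 8.16% (4.29 to 13.8) of young cells, so that aged D+Q and aged vehicle overlapped closely in the share of cells. Elovl6 had 18, 20 and 22 counts in aged D+Q, aged vehicle and young of this class, at −1.16 (−2.16 to −0.17) in aged D+Q over aged vehicle. Acaca had 17.6 CPM (7.09 to 36.3) in aged D+Q, 45.6 CPM (20.9 to 86.6) in aged vehicle and 71.6 CPM (47.6 to 104) in young, lowest in aged D+Q, at −1.95 (−3.46 to −0.79) over young. The median mitochondrial share of these cells was 13.1% in aged D+Q, 14.1% in aged vehicle and 7.26% in young, and its part in these values was not tested.

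In endothelium-like cells, 421 in aged D+Q, 298 in aged vehicle and 587 in young, 25 of the 30 genes passed the filter. At the 1.5-fold threshold, 1 of them was higher and 6 lower in aged D+Q than in aged vehicle, with 11.1% and 12.0% of all genes. Against young, aged vehicle had 6 higher and 3 lower, with 10.9% and 9.8% of all genes, and aged D+Q had 1 higher and 9 lower, with 7.27% and 8.13%. Cyp51 had 29.8 CPM (21.2 to 40.7) in aged D+Q, 51.5 CPM (38.4 to 67.7) in aged vehicle and 52.7 CPM (43.2 to 63.8) in young cells of this class. Aged D+Q was lowest, at −0.79 (−1.43 to −0.16) over aged vehicle and −0.81 (−1.39 to −0.28) over young, and aged vehicle over young was −0.03 (−0.55 to 0.46). Acaca had 54.2 CPM (42.3 to 68.4) in aged D+Q, 83.8 CPM (66.8 to 104) in aged vehicle and 52.7 CPM (43.2 to 63.8) in young. Aged vehicle was highest, at 0.67 (0.24 to 1.10) over young. Ebp had 27.5 CPM (19.2 to 38.04) in aged D+Q, 24.2 CPM (15.5 to 36.1) in aged vehicle and 39.8 CPM (31.6 to 49.5) in young, at −0.69 (−1.44 to −0.04) in aged vehicle over young.

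In distal convoluted tubule-like cells, 233 in aged D+Q, 165 in aged vehicle and 276 in young, 15 of the 30 genes passed the filter. At the 1.5-fold threshold, 2 of them were higher and 2 lower in aged D+Q than in aged vehicle, with 11.2% and 19.0% of all genes. Against young, aged vehicle had 4 higher and 3 lower, with 19.6% and 9.53% of all genes, and aged D+Q had 3 higher and 1 lower, with 11.0% and 9.34%. Ebp had 33.1 CPM (19.3 to 53.02) in aged D+Q, 27.8 CPM (13.3 to 51.05) in aged vehicle and 61.2 CPM (43.7 to 83.4) in young, lowest in aged vehicle, at −1.09 (−2.31 to −0.12) in aged vehicle over young. Acly had 13.6 CPM (5.48 to 28.1) in aged D+Q, 49.96 CPM (29.6 to 78.96) in aged vehicle and 16.8 CPM (8.41 to 30.1) in young. Aged vehicle stood apart, at −1.81 (−3.38 to −0.55) in aged D+Q over aged vehicle and 1.54 (0.41 to 2.80) over young. The proximal tubule markers reached 54.2%, 64.3% and 56.3% of their proximal tubule-like level in this class of aged D+Q, aged vehicle and young, and 63.2%, 69.7% and 65.6% in endothelium-like cells, and their part in these values was not tested.

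In stroma-like cells, 181 in aged D+Q, 82 in aged vehicle and 163 in young, 8 of the 30 genes passed the filter. At the 1.5-fold threshold, 1 of them was higher and 5 lower in aged D+Q than in aged vehicle, with 13.6% and 14.7% of all genes. Against young, aged vehicle had 4 higher and 0 lower, with 15.8% and 13.8% of all genes, and aged D+Q had 2 higher and 1 lower, with 10.9% and 9.69%. Acly had 41.7 CPM (25.1 to 65.2) in aged D+Q, 87.8 CPM (49.2 to 145) in aged vehicle and 23.2 CPM (11.1 to 42.6) in young, highest in aged vehicle, at 1.90 (0.67 to 3.24) in aged vehicle over young. In thick ascending limb-like cells, 367 in aged D+Q, 178 in aged vehicle and 359 in young, 19 of the 30 genes passed the filter. At the 1.5-fold threshold, 1 of them was higher and 3 lower in aged D+Q than in aged vehicle, with 10.8% and 16.0% of all genes. Against young, aged vehicle had 3 higher and 2 lower, with 16.3% and 10.4% of all genes, and aged D+Q had 1 higher and 2 lower, with 8.14% and 7.24%. Ebp had 47.8 CPM (34.2 to 65.1) in aged D+Q, 33.9 CPM (18.1 to 58.05) in aged vehicle and 52.3 CPM (38.4 to 69.6) in young of the limb, with overlapping intervals. The limb held a cluster with 38.7% mitochondrial counts beside one with 7.31%, and Scd2 had 73.7 CPM in the high and 13.6 CPM in the low one, whereas Acaca had 19.9 CPM in the high and 61.9 CPM in the low one.

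Among 60 other genes of lipid synthesis and transport, 49 passed the filter in proximal tubule-like cells. There 1 was higher and 2 lower in aged D+Q than in aged vehicle, 1 higher and 3 lower in aged vehicle than in young, and 1 higher and 1 lower in aged D+Q than in young, set against the shares of all genes given for these cells. Cyp7b1, an oxysterol hydroxylase that also served as an S3 marker, had 411 CPM in aged D+Q, 892 CPM in aged vehicle and 428 CPM in young. It was highest in aged vehicle, as were Scd1 and Mfsd2a, at −1.12 (−1.17 to −1.06) in aged D+Q over aged vehicle and 1.06 (1.008 to 1.11) in aged vehicle over young. Slc25a1, the mitochondrial citrate carrier, had 11.2 CPM in aged D+Q, 17.9 CPM in aged vehicle and 14.04 CPM in young, at −0.68 (−1.03 to −0.33) in aged D+Q over aged vehicle. Abca1, which exports cholesterol from cells, had 32.2 CPM in aged D+Q, 21.4 CPM in aged vehicle and 44.97 CPM in young. It was lowest in aged vehicle, at 0.59 (0.33 to 0.86) in aged D+Q over aged vehicle and −1.07 (−1.33 to −0.82) in aged vehicle over young. Mylip, a ubiquitin ligase of lipoprotein receptors, had 57.7 CPM in aged D+Q, 56.2 CPM in aged vehicle and 91.9 CPM in young, lower in both aged libraries, at −0.71 (−0.87 to −0.55) in aged vehicle over young and −0.67 (−0.81 to −0.53) in aged D+Q over young. Tmem97, a sterol-regulated membrane protein, had 9.74 CPM in aged D+Q, 8.80 CPM in aged vehicle and 13.8 CPM in young, at −0.64 (−1.08 to −0.23) in aged vehicle over young. Apoe, the apolipoprotein, had 113 CPM in aged D+Q, 85.97 CPM in aged vehicle and 70.8 CPM in young, highest in aged D+Q, at 0.67 (0.55 to 0.79) over young.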

How the data were processed

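Kidneys were digested with collagenase II and cells sequenced with a MobiCube 3′ single-cell kit, per the labels' protocols. The deposited matrices hold raw UMI counts, whole numbers whose totals differ between libraries. The submitters' processing notes name GRCm39 and mm10 without roles. The aligner, the barcode selection and any use of intronic reads: not given in the sources used here.

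Barcodes over 50% mitochondrial counts were left out (149 in aged D+Q, 82 in aged vehicle and 385 in young). Scrublet's automatic threshold called 0 doublets, so barcodes in the top score quantile, 0.8% per 1000 barcodes, were left out (432, 253 and 532 in the same libraries). Cells were clustered without integration on 2000 variable genes other than the 30 genes and 60 further lipid genes, with 30 principal components, 15 neighbours and Leiden resolution 1. Clusters were named "-like" from marker lists of 25 classes, so names may differ from the study's own; 10.6% of aged D+Q, 16.4% of aged vehicle and 11.9% of young cells stayed unnamed. Libraries were compared within a class only if each held 50 or more of its cells.

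Summed counts of each class were divided by their total to give CPM, and log2 ratios add 0.5 to each count. Intervals are exact Poisson (levels), conditional binomial (ratios) and Clopper-Pearson (shares); UMIs limit but do not remove amplification error. The ratio step was tested on simulated counts drawn with counting error alone, which leave out variation between cells, animals or libraries. Genes at 20 CPM in any library over all cells were described in full. So were genes past 1.5-fold with an interval excluding no change, over all cells or in proximal tubule-like cells. For the smaller classes only some genes past 1.5-fold were named, so those lists are not complete. The members, lists and markers were chosen with earlier results of these data known. Tools were Python 3.11.15, scanpy 1.11.5, igraph 0.11.9, scipy 1.17.1 and, for one alternative scaling (TMM), edgeR 4.0.16 in R 4.3.3.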

Additional observations from a re-analysis of the deposited data

How the results depend on the processing

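No paired analysis was possible because each group is 1 library. Of 198 recomputed counts and medians, 186 were kept: counts within 1.5 times, medians within the median half-width of the intervals of single-gene ratios. Only ratios past 1.5-fold with an interval excluding no change could be scored as turned in direction, and 0 were. Of all 1659 recomputed gene ratios, called or not, 1644 stayed within the counting interval of the main ratio. Over all cells, a stricter filter (100 counts and 20 CPM) left 1 gene lower in aged D+Q than in aged vehicle, 0 higher in aged vehicle than in young, and 0 higher and 2 lower in aged D+Q than in young, since fewer genes entered. Leaving out adipocyte-like, urothelium-like and haemoglobin-led clusters gave a median of 0.18 in aged vehicle over young and 2 lower genes in aged D+Q over young, and a mean over cells gave 0 higher genes there; the cause was not tested. Without those 3 kinds of cluster, Fasn in aged vehicle over young was −0.40, below the filter. In proximal tubule-like cells, no filter on low counts gave 1 higher gene in aged D+Q over aged vehicle, 4 lower in aged vehicle over young and 1 higher in aged D+Q over young. Further settings were chosen after seeing the data: a common mix of clusters left 2 higher genes in aged vehicle over young, and leaving out cluster 4 gave 1 higher gene in aged D+Q over young; the cause was not tested. The median of aged vehicle over young in proximal tubule-like cells was −0.06 without the filter and −0.02 with the common mix. Idi1 in aged D+Q over aged vehicle was past 1.5-fold in 7 of 12 alternatives in proximal tubule-like cells (−0.68 to −0.35) and Scd1 in 13 of 13 (−1.58 to −0.99), as was Mfsd2a (−1.38 to −1.05). Cyp51 in aged vehicle over young was past it in 13 of 13 (−0.92 to −0.78). In the same comparison Acly was past it in 10 of 13 (0.39 to 0.65). Over all cells, Idi1 in aged D+Q over aged vehicle was past it in 4 of 8 (−0.76 to −0.42). Low counts limit the ratios outside the proximal tubule.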
